A study of Homo sapiens with 5 samples.

Results

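The non-clustered protocadherins PCDH1, PCDH7, PCDH9, PCDH10, PCDH17 and PCDH18 were examined in clones of TE7, a human esophageal cancer cell line. Members were the genes whose probe sets carried one of these 6 symbols in the platform annotation, 6 of 14812 named genes, and probe sets of one gene were averaged. One group consisted of 3 CDH26 clones, transduced with pMIRNA1-puro-CDH26, a construct that expresses human CDH26. The other consisted of 2 control clones that received pMIRNA1-puro-control. Each clone was grown from a single cell to confluence and held for 24 h in RPMI with 1.8 mM calcium, and its total RNA was hybridised to 1 Affymetrix Gene 2.0 ST array. A clone descends from 1 transduced cell, so within a clone the construct and the properties of its founding cell cannot be told apart. The 6 genes were chosen with the contrast between these groups already known, and their values are therefore given as a description, with no test.

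Protocadherins are the largest branch of the cadherin superfamily, the calcium-dependent adhesion proteins to which CDH26 also belongs. Unlike classical cadherins they lack the cytoplasmic catenin-binding region, and many adhere weakly while signalling to the actin cytoskeleton through their tails. The clustered protocadherins lie in tandem arrays, whereas the non-clustered genes are dispersed. Most of the non-clustered genes belong to the delta group, which is best known from axon growth and circuit formation in the nervous system. PCDH1, PCDH7 and PCDH9 belong to the delta-1 subgroup, whose tails carry a docking site for protein phosphatase 1, and PCDH10, PCDH17 and PCDH18 belong to the delta-2 subgroup, of which PCDH10 and PCDH17 are known to bind the actin-regulating WAVE complex. PCDH10 and PCDH17 are also known as genes silenced by promoter methylation in several carcinomas, and PCDH1 is a protein of airway epithelium.

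Values per clone are listed below by clone number, CDH26 clones 1, 2 and 3 and control clones 1 and 2. The deposited values are logarithms centred on the mean of the 2 control clones in each probe set, read here as log2, so they hold differences between clones and no expression level. Neither the squamous nor any other identity of TE7 can be checked from such values. CDH26 itself stood at 2.87, 3.01 and 2.63 in the CDH26 clones and at 0.01 and −0.01 in the control clones, so the transcript followed the labels. The arrays of the CDH26 clones were set apart from the rest by 0.5 log2 units or more in 11 to 72 genes each, against 116 genes for control clone 1 and 468 for control clone 2. In limma, with Benjamini-Hochberg adjustment over 14812 genes, 0 genes passed an adjusted p of 0.05 in either direction, while 1113, or 7.51%, had an unadjusted p under 0.05. CDH26 itself did not pass, so a count of 0 in any list below only repeats this result. With 5 arrays, their number sets the precision of each value below.

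PCDH18, PCDH7 and PCDH9 had higher values in the CDH26 clones than in the control clones, whereas PCDH10 and PCDH17 lay close to the controls and PCDH1 lay slightly below. In PCDH18, PCDH7 and PCDH9 the lowest CDH26 clone exceeded the higher control clone, and in 0 of the 6 genes were the CDH26 clones wholly below the controls. Over all genes tested, 8.98% had their CDH26 clones wholly above and 9.93% wholly below, or 16.4% and 18.6% among the 6857 genes in which the 5 arrays had 5 different values. A mean difference of at least 1 log2 unit, that is 2-fold, was found in PCDH18 and PCDH7, against 0.506% of all genes in that direction and 0.142% in the other. The 6 genes had been chosen on this contrast, so their counts carry no further reading. Their median difference was 0.535, beside a median of 0 over all genes.

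PCDH18, a delta-2 protocadherin whose tail binds the adaptor Dab1 in the mouse, differed most. It had values of 3.07, 2.99 and 1.43 in the CDH26 clones against −0.10 and 0.10 in the control clones. The groups did not overlap, and the lowest CDH26 clone stood 1.33 log2 units above the higher control clone. The mean was 2.50 ± 0.93 in CDH26 clones (SD, n = 3) and 0 ± 0.14 in control clones (SD, n = 2), a difference of 2.50 ± 0.61 (SE from limma) or 5.65-fold. By size, it was the 6th highest difference among all 14812 genes, with CDH26 in 3rd place.

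PCDH7, a delta-1 protocadherin that binds protein phosphatase 1 and the phosphatase inhibitor SET, came next. Its values were 1.93, 1.82 and 0.68 in the CDH26 clones against 0.20 and −0.20 in the control clones. CDH26 clone 3 thus lay 0.48 above control clone 1, nearer to it than to CDH26 clones 1 and 2. The mean was 1.48 ± 0.69 in CDH26 clones (SD, n = 3) and 0 ± 0.28 in control clones (SD, n = 2), a difference of 1.48 ± 0.47 (SE) or 2.78-fold, and it ranked 24th.

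PCDH9, the remaining delta-1 member of the higher genes, had a gene mean of 0.79, 1.23 and 0.44 in the CDH26 clones against −0.01 and 0.01 in the control clones. The nearest clones of the groups were 0.43 apart. The mean was 0.82 ± 0.40 in CDH26 clones (SD, n = 3) and 0 ± 0.02 in control clones (SD, n = 2), a difference of 0.82 ± 0.26 (SE) or 1.76-fold, in 129th place. This mean hides a disagreement between its probe sets, described further on.

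**Figure D1:**
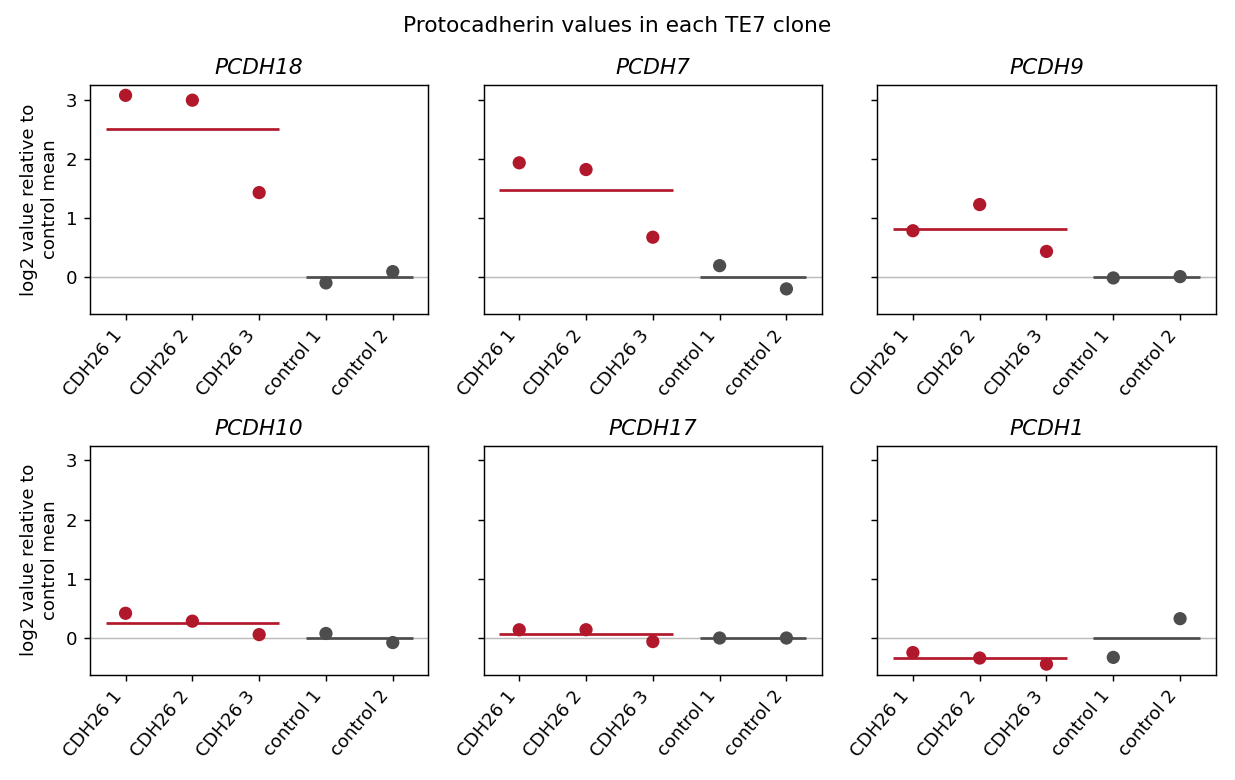
Values of the 6 protocadherins in each clone, in log2 units from the control mean. Red points are CDH26 clones, grey points control clones, and horizontal lines are group means. PCDH18, PCDH7 and PCDH9 have all 3 CDH26 clones above both control clones, with clone 3 the lowest of them, while the other genes overlap between groups.

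The promoters of these 3 higher genes are shown because their transcripts differed in the same direction. Each runs from 250 bases before to 50 bases after the start of the gene, 5′ to 3′ on the strand of the gene, from RefSeq on GRCh38.p14, a table that held 5 of the 6 members. Their positions are chr4:137532445-137532744 on the minus strand for PCDH18, chr4:30720119-30720418 on the plus strand for PCDH7 and chr13:67230287-67230586 on the minus strand for PCDH9. Capitals mark matches, on either strand, to a CCAAT box (CCAAT) or a GC box (GGGCGG).
PCDH18: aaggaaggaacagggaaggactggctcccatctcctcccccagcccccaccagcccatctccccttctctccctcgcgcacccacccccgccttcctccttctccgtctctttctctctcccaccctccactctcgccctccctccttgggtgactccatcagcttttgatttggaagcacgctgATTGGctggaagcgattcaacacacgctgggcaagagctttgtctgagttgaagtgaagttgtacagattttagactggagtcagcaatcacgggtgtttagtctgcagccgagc
PCDH7: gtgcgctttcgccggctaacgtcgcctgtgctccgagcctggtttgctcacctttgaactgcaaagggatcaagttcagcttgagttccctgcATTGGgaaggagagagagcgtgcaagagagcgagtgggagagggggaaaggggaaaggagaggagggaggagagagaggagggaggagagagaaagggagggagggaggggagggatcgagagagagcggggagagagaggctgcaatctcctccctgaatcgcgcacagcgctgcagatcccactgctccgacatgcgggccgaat
PCDH9: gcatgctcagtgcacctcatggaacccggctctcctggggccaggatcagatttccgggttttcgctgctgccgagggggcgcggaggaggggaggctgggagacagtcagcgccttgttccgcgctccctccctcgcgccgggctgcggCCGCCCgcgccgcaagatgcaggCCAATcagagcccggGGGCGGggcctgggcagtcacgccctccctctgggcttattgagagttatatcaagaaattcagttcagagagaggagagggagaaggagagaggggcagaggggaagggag
Each of the 3 held 1 CCAAT box, which 34.6% of the 35116 promoters in the table contain, and the CCAAT box also occurred once in the promoter of PCDH17 and not in that of PCDH1. GC boxes, present in 45.0% of promoters, were found at 2 places in PCDH9 and 2 in PCDH1, and at 0 in PCDH18, PCDH7 and PCDH17. The E-box CAGGTG, found in 20.6% of promoters, matched only PCDH1 among the 5, once. TATAAA (11.5% of promoters), the AP-1 letters TGANTCA (7.71%) and the TEAD letters CATTCC (14.0%) had 0 matches in the 5 promoters. No matches overlapped. GC content was 57.0% in PCDH18, 60.3% in PCDH7 and 65.7% in PCDH9, against 58.0% in PCDH1, 52.7% in PCDH17 and a median of 58.7% over all promoters. CpG dinucleotides numbered 10 in PCDH18, 16 in PCDH7 and 20 in PCDH9, against 6 in PCDH1, 11 in PCDH17 and a median of 14 over all promoters. These sequences shared no motif of the 6 searched that the promoter of PCDH17 lacked.

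PCDH10, which binds the WAVE complex component NCKAP1, had a smaller difference. It stood at 0.42, 0.28 and 0.06 in the CDH26 clones and at 0.08 and −0.08 in the control clones. CDH26 clones 1 and 2 lay above both control clones, and clone 3 lay between them. The difference was 0.25 ± 0.13 (SE), or 1.19-fold.

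PCDH17, which recruits the WAVE complex to contacts between axons in the mouse, lay nearest to the controls. Its values were 0.14, 0.14 and −0.06 in CDH26 clones 1, 2 and 3, against 0 in both control clones, which were tied. CDH26 clones 1 and 2 were above the controls and clone 3 below, and the difference was 0.07 ± 0.08 (SE).

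PCDH1, a delta-1 protocadherin and an entry receptor of New World hantaviruses, was the only one of the 6 with a lower mean in the CDH26 clones. It had values of −0.25, −0.34 and −0.44 in the CDH26 clones against −0.33 and 0.33 in the control clones. Control clone 1 lay among the CDH26 clones, and control clone 2 stood alone above them. The difference of −0.34 ± 0.22 (SE) became −0.015 without control clone 2 and −0.67 without control clone 1.

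Clones 1 and 2 of the CDH26 group differed by at least 1 log2 unit in 9 genes. Clone 3 differed by that much from CDH26 clones 1 and 2 in 75 and 62 genes, more than the 33 genes in which it differed from control clone 1, and from control clone 2 in 157, while the control clones differed from each other in 183. The value of clone 3 minus the mean of CDH26 clones 1 and 2 was −1.60 in PCDH18, −1.20 in PCDH7 and −0.57 in PCDH9. For CDH26 itself this distance was −0.31. The same order was common on the arrays: of the 75 genes with a mean at least 1 log2 unit higher in the CDH26 clones, clone 3 was the lowest CDH26 clone in 71, or 94.7%, with a median distance of −0.875 from the mean of clones 1 and 2. The part of construct level in this order was not tested. Without CDH26 clone 3 the differences were 3.03 in PCDH18, 1.88 in PCDH7 and 1.01 in PCDH9.

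PCDH9 and PCDH17 were each measured by 2 named probe sets. Probe set 16779667 of PCDH9 stood at 1.55, 2.46 and 0.88 in the CDH26 clones against −0.02 and 0.02 in the control clones. Its companion, 16775260, was flat, between −0.01 and 0.02 in the CDH26 clones and within 0.00088 of 0 in the control clones. The differences were 1.63 ± 0.52 (SE) for probe set 16779667, 20th of 15835 named probe sets by size, and 0.0048 ± 0.0201 for the flat one, 7283rd. Averaging therefore gave PCDH9 a value that neither probe set showed. Of 529 genes with 2 named probe sets, PCDH9 was the 1 whose probe sets lay at least 1.62 log2 units apart in this difference, where the median distance was 0.076. The files do not say which part of PCDH9 or which strand each probe set covers.

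The annotation also names antisense transcripts of PCDH9, looked up after the values of PCDH9 had been seen. PCDH9-AS2 stood at 0.01 in each of the 3 CDH26 clones, against 0.01 and −0.01 in control clones 1 and 2. PCDH9-AS3 stood at 0.02, 0.05 and 0.02 in the CDH26 clones against 0.01 and −0.01 in the control clones. Both stayed near 0 in all clones.

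For PCDH17 the probe sets had nearly equal differences, 0.07 ± 0.13 (SE) and 0.07 ± 0.10, but from different clones. Probe set 16775136 was highest in CDH26 clone 2, at 0.28, and probe set 16779535 in CDH26 clone 1, at 0.25, while all control values were 0. Each probe set thus had its highest value in another clone.

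**Figure D2:**
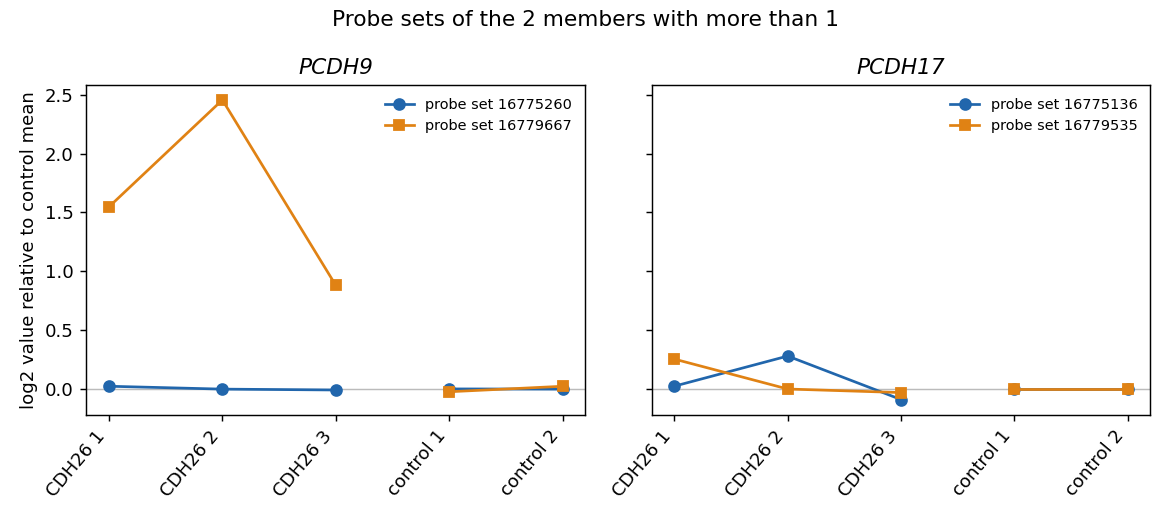
Values of each probe set of PCDH9 (left) and PCDH17 (right) in each clone, in log2 units from the control mean. Lines join clones of one group for legibility and mark no order. One PCDH9 probe set reaches 2.46 in CDH26 clone 2 while the other stays near 0 in all clones.

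The genes with values most like those of PCDH18, PCDH7 and PCDH9 were sought over the 5 clones by root mean square difference, in log2 units, for the members that ranged over at least 1 log2 unit. PCDH18 was nearest to IFI44, an interferon-induced gene, at a distance of 0.14, with values of 3.08, 2.85 and 1.58 in the CDH26 clones against −0.27 and 0.27 in the control clones. ADGRL2, an adhesion G protein-coupled receptor, followed at 0.25, the interferon-induced helicase gene DDX60 at 0.27, the basal keratin KRT14 at 0.34 and the epidermal growth factor receptor ligand EREG at 0.38. These likenesses rest on 5 arrays and on genes that share the order of clones described above.

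PCDH7 was nearest to RADX, which encodes a single-stranded DNA-binding protein of replication forks, at a distance of 0.16, and then to CRISPLD1 at 0.17. The matrix proteoglycan lumican (LUM) followed at 0.20, the transcription factor gene IKZF2 at 0.22 and the lysyl oxidase gene LOX at 0.27. For the gene mean of PCDH9 the nearest were LTB4R, a leukotriene B4 receptor, at 0.079, the scaffold gene GRIP1 at 0.086 and the fatty acid elongase ELOVL4 at 0.097, then GALNT5 at 0.11 and CPNE8 at 0.12. By this distance, which depends on the size of the values as well as their pattern, the 3 genes were not nearest to one another. PCDH9 was taken as its gene mean, and distances of its single probe sets were not computed. PCDH7 and PCDH18 were 0.83 apart, which made PCDH7 the 18th nearest gene to PCDH18 but PCDH18 the 255th nearest to PCDH7. PCDH7 and PCDH9 were 0.60 apart, with PCDH9 the 89th nearest to PCDH7 and PCDH7 the 2329th nearest to PCDH9. PCDH18 and PCDH9 were 1.37 apart, in 114th place from PCDH18 and in 14737th place from PCDH9.

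**Figure D3:**
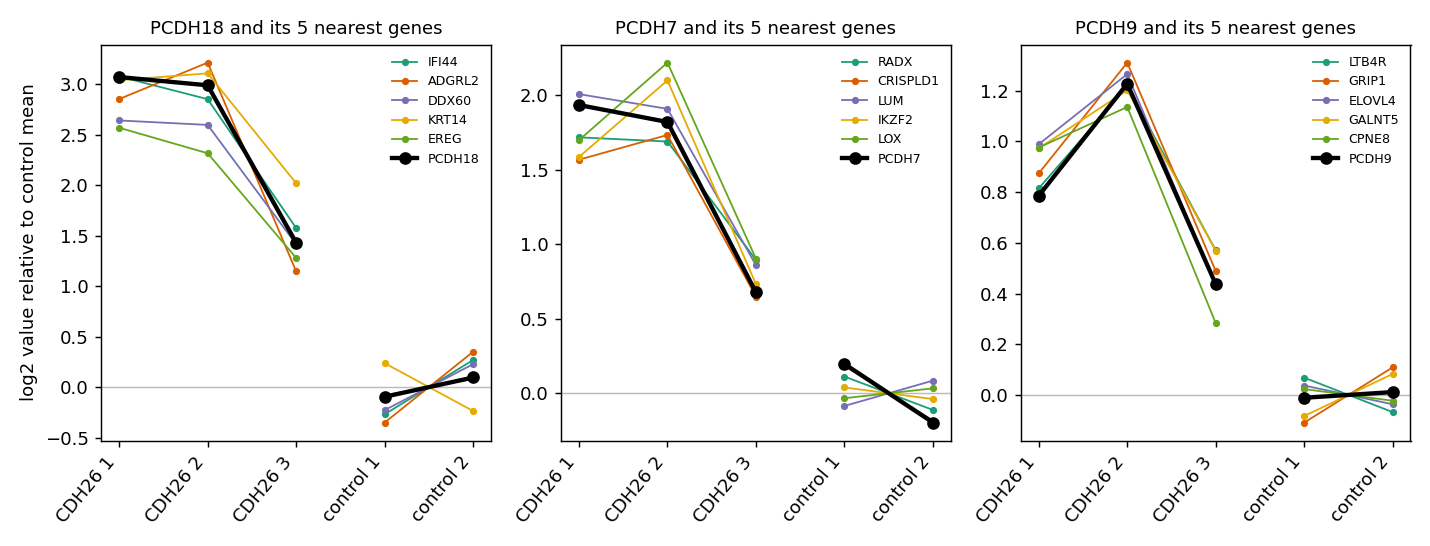
Values of PCDH18, PCDH7 and PCDH9 (black) and of the 5 genes nearest to each over the 5 clones (colours), in log2 units from the control mean, with a separate scale in each panel. Each set is high in CDH26 clones 1 and 2 and lower in CDH26 clone 3. The control clones have a mean of 0 through the centring and lie on either side of it, as far as −0.35 and 0.35 in ADGRL2.

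The rest of the protocadherin family showed small differences, which centred values cannot tell from a lack of signal. All 7 other non-clustered genes listed were measured, and their differences ran from 0 to 0.09, beside 8932 of 14812 genes within 0.1 of 0. PCDH8, PCDH12 and PCDH19 had the same value on all 5 arrays, as did 377 genes in all. Of the 7, only PCDH20 had a different value on each array, as did 6857 of all genes. PCDH15, a protein of hair cell tip links, was at 0.02, 0.25 and 0.02 in the CDH26 clones against −0.01 and 0.01 in the control clones. It was the 1 gene of the 7 whose CDH26 clones were wholly above the controls, beside 8.98% of all genes. Its nearest clones of the groups were only 0.0039 apart, and its CDH26 clones 1 and 3 were tied. Its difference was 0.09 ± 0.09 (SE). The differences were 0.04 ± 0.04 for PCDH11X, 0.03 ± 0.04 for PCDH11Y and 0.01 ± 0.04 for PCDH20.

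Of 53 clustered protocadherins listed, 16 were measured, all of the beta cluster. As among all genes, 0 passed the adjusted threshold in either direction. Their median difference was 0.02, and 13 of the 16 were within 0.1 of 0. Most of the 16 had values tied between arrays, beside 6857 of 14812 genes with no ties. PCDHB12 had the largest difference, 0.33 ± 0.21 (SE), with 0.53, 0.20 and 0.26 in the CDH26 clones against 0.26 and −0.26 in the control clones. PCDHB13 differed by 0.26 ± 0.31, and there CDH26 clone 3 was highest, at 0.61. In both genes the groups overlapped. PCDHB11 was the 1 gene of the 16 whose CDH26 clones were wholly above the controls, and 0 were wholly below, beside 8.98% and 9.93% of all genes. It stood at 0.09, 0.32 and 0.15 in the CDH26 clones against −0.01 and 0.01 in the control clones, a difference of 0.19 ± 0.08 (SE). Beta cluster genes are close copies of one another, so hybridisation of one transcript to probes of another is possible and was not tested.

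**Figure D4:**
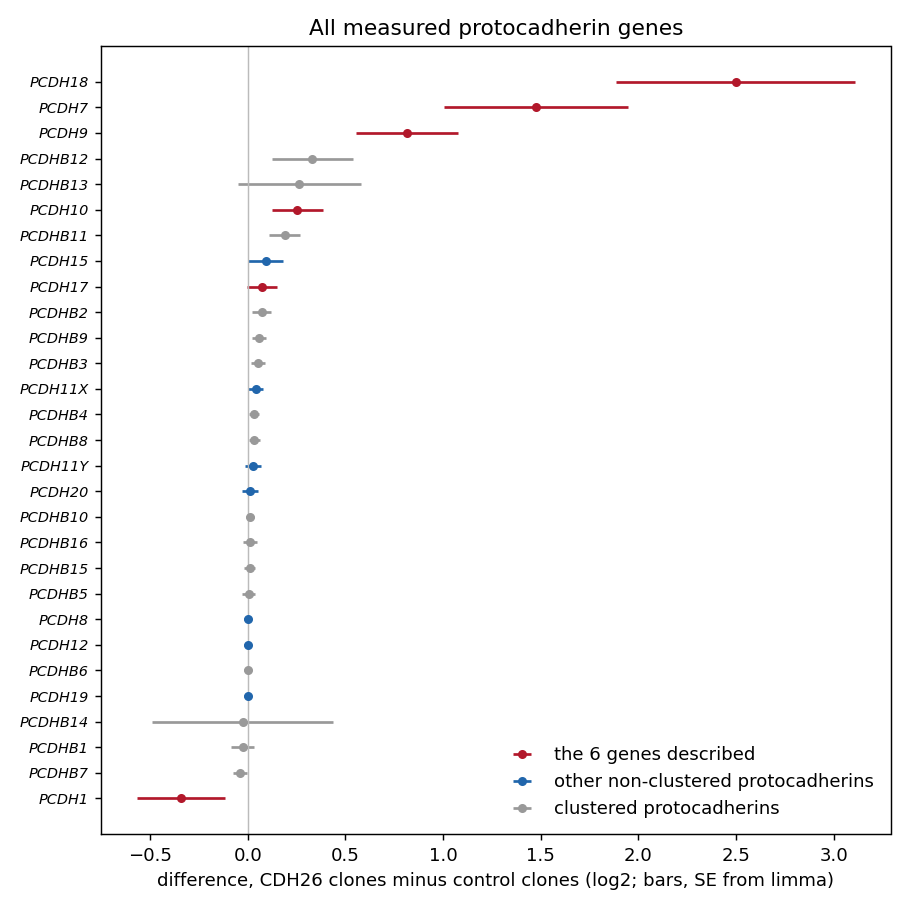
Difference between the mean of the 3 CDH26 clones and the mean of the 2 control clones for the 29 measured protocadherin genes, in log2 units, with the SE from limma as bars. PCDH18, PCDH7 and PCDH9 have the highest differences and PCDH1 the lowest, and most other genes lie within 0.1 of 0.

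The other genes of the cadherin superfamily were compared by a list that leaves out CDH26. Of 46 listed, 21 were measured, that is, had a named probe set, and, as among all genes, 0 passed the adjusted threshold in either direction. The 21 include desmosomal cadherin, FAT and calsyntenin genes but no classical cadherin, so this comparison does not cover the classical cadherins. The CDH26 clones were wholly above the controls in 5 of them and wholly below in 1, against 8.98% and 9.93% of all genes. The median difference was 0.02. FAT4, an atypical cadherin of planar polarity, had the largest difference at 1.40 ± 0.21 (SE), and its values were 1.32, 1.70 and 1.18 in the CDH26 clones against −0.18 and 0.18 in the control clones. DSG3, the desmoglein of basal squamous cells, differed by 1.00 ± 0.36. PCDH18 had a larger difference than each of these 21 genes. PCDH7, with a difference of 1.48 ± 0.47, was above FAT4 in CDH26 clones 1 and 2 and below it in CDH26 clone 3. The contrast between PCDH7 and FAT4 was not tested. The place of PCDH9 depends on its probe sets, whose differences lie on either side of those of PCDH7 and FAT4.

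Proteins known to work with delta protocadherins formed the next list, of which 11 of 24 genes were measured. Here too, as among all genes, 0 passed the adjusted threshold in either direction. Their median difference was −0.11, or −0.065 without control clone 1 and −0.071 without control clone 2, with 3 higher and 8 lower means in the CDH26 clones. The CDH26 clones were wholly below the controls in 2 genes and wholly above in 1, beside 9.93% and 8.98% of all genes. ENAH, an Ena/VASP actin regulator, had values of −0.38, −0.35 and −0.40 in the CDH26 clones against −0.20 and 0.20 in the control clones, a difference of −0.38 ± 0.13 (SE). TAOK2, a kinase bound by PCDH8 in the rat, had a difference of −0.29 ± 0.09.

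Among 4 measured proteins known to bind members, NCKAP1 had the largest difference. DAB1, the adaptor bound by PCDH18, stood at 0.19, 0.01 and −0.17 in the CDH26 clones against 0.01 and −0.01 in the control clones. SET, bound by PCDH7, stood at −0.02 in each CDH26 clone, against 0.05 and −0.05 in control clones 1 and 2. NCKAP1, the WAVE complex component bound by PCDH10, had a difference of −0.22 ± 0.17 (SE), with CDH26 clone 1 at −0.47 and clone 3 at 0.01. SMAD3, which binds PCDH1, had a difference of −0.03 ± 0.09. In all 4 the groups overlapped.

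Markers of squamous epithelium also had higher values in the CDH26 clones. Of 10 measured of 14 listed, the CDH26 clones were wholly above the controls in 7 and wholly below in 0. DSG3 and DSC3 are among the 7 and were also counted in the cadherin superfamily list, so the counts of these lists are not separate. The list was chosen with earlier results of these data known. Over all genes the shares were 8.98% and 9.93%, or 16.4% and 18.6% among genes without ties. The median difference of the list was 0.62. Leaving out control clone 2 gave a median of 0.29 and leaving out control clone 1 one of 0.95, and in 3 of the 7 genes the nearest clones of the groups were only 0.0037 (KRT5), 0.0042 (S100A2) and 0.029 (DSC3) apart. The mean over the list was 0.865, 0.985 and 0.632 in the CDH26 clones against 0.337 and −0.337 in the control clones, and the largest differences were those of KRT14, 2.72 ± 0.43 (SE), and DSG3. Mesenchymal markers had a median of −0.0048 over 10 of 20 listed. LUM was the exception there, at 1.59 ± 0.42, with values of 2.01, 1.91 and 0.86 in the CDH26 clones against −0.09 and 0.09 in the control clones, while the next largest difference was that of THY1, at −0.16 ± 0.10. Neuronal markers had a median of 0.02 over 7 of 15 listed, with 0 genes wholly above or below the controls; NCAM1 differed by 0.24 ± 0.31 and MAP2 by 0.20 ± 0.44. The part of the squamous markers in the protocadherin values was not tested.

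**Figure D5:**
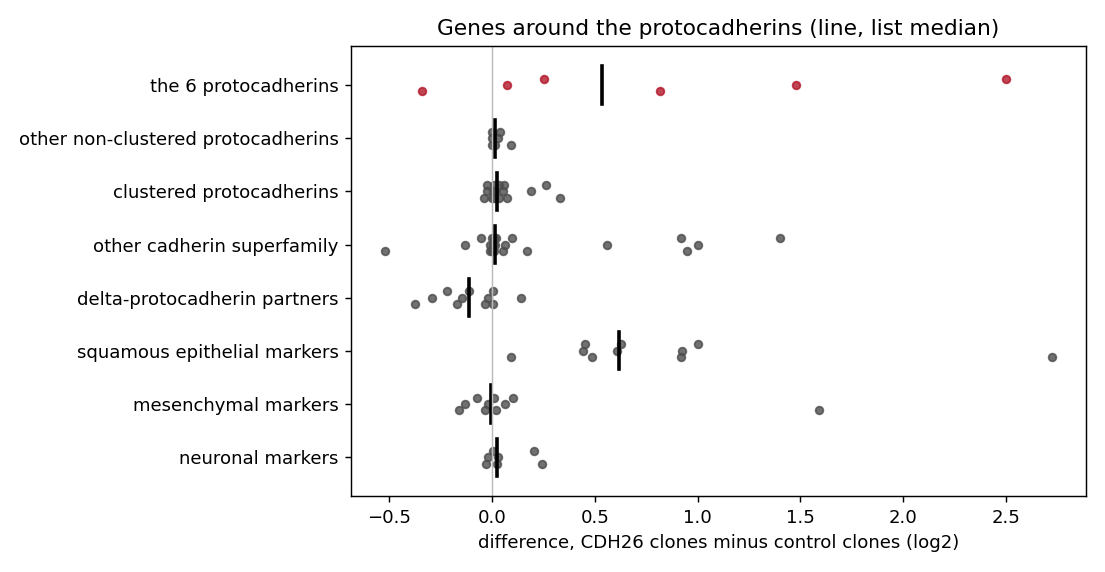
Difference between CDH26 and control clones, in log2 units, for each measured gene of the lists described, with the list median as a vertical line. The 6 protocadherins run from −0.34 to 2.50, while the partner list reaches −0.38 (ENAH), with a median of −0.11, and the squamous epithelial markers have a median of 0.62.

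The nearest genes to PCDH18 in the RefSeq gene order that had a named probe set were PCDH10 and C4orf33 on one side and the noncoding LINC00616 and SLC7A11-AS1 on the other. They are not its immediate neighbours: 24 annotated genes with no named probe set lie between PCDH18 and PCDH10, 59 before C4orf33, and 7 before each of the noncoding genes, and these were not analysed here. C4orf33 stood at 0.24, 0.42 and 0.24 in the CDH26 clones against 0.24 and −0.24 in the control clones, a difference of 0.30 ± 0.17 (SE). LINC00616 had a difference of 0.03 ± 0.05 and SLC7A11-AS1 one of 0.07 ± 0.09. In all 4 genes the groups overlapped, whereas the clones of PCDH18 did not.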

How the data were processed

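Gene expression was measured in 5 TE7 clones, 1 Affymetrix Gene 2.0 ST array each. Per the submitters' processing notes Affymetrix Expression Console was used; its version, the summarisation method and the build were not given in the sources used here. The deposited log2 values are the authors' and are centred on the control mean in every probe set (the control values sum to at most 1e-06); the base is not recorded and was taken as log2. The table held 44607 probe sets, of which 15835 named 1 gene each.

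Probe sets were averaged to 14812 genes, and groups, taken from the labels, were compared in R 4.3.3 by the limma package, version 3.58.1 (lmFit, eBayes, group as the only term, two-sided), adjusted over all genes at 0.05; the step was tested on simulated data. Values within 1e-05 were tied. With 3 clones against 2, the smallest exact permutation p is 0.1. Replicates are separate clones, so their spread includes differences between clones. The members and gene lists were chosen with earlier results of these data known. Named were CDH26, all protocadherins outside the clusters, the 5 nearest genes of each member ranging over at least 1 log2 unit, the 2 largest differences of each list, 5 set partners where measured, and the neighbours of PCDH18. KRT5, S100A2, DSC3, PCDHB11 and the antisense transcripts are also named where values are compared. No brightness filter could be run on centred values, and the planned comparison of protein sequences was not run. Alternatives were array centring, array weights, a variance trend with robust fitting, a replicate block, single probe sets, natural logarithms, a threshold of 0.1, each clone left out and, chosen after seeing the data, genes without ties. Figures were drawn with matplotlib 3.10.9.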

Additional observations from a re-analysis of the deposited data

How the results depend on the processing

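PCDH18, PCDH7, PCDH9, PCDH10 and PCDH17 had higher means, and PCDH1 a lower mean, in the CDH26 clones under each alternative that refitted them. Most alternatives could not change a direction. The array medians were already 0, the variance trend and the threshold leave the differences as they are, and natural logarithms only rescale them. In PCDH18, PCDH7 and PCDH9, whose groups do not overlap, leaving out a clone could not change it either. The constant direction therefore carries little information. Read as natural logarithms, the differences in log2 units would be 3.60 for PCDH18, 2.13 for PCDH7 and 1.18 for PCDH9. PCDH9 was at 1.63 with probe set 16779667 alone and at 0.0048 with 16775260 alone. With each clone left out in turn the differences ran from 2.21 to 3.03 for PCDH18, 1.25 to 1.88 for PCDH7, 0.61 to 1.01 for PCDH9, 0.17 to 0.35 for PCDH10, 0.04 to 0.14 for PCDH17 and −0.67 to −0.015 for PCDH1. The number of members whose groups did not overlap ran from 3 to 5 over these fits, with 5 without CDH26 clone 3 and 5 without control clone 1; fewer clones overlap less often by construction. The number of genes past the adjusted threshold in limma was 0 with all clones and ran from 0 to 186 with a clone left out. The highest number came without control clone 1, where the spread of the lone control is taken from the CDH26 clones. That is equally so without control clone 2, where the number was not raised. Why these fits differ was not tested, and their numbers are not read further. With all clones, the number was 1, CDH26, among the 6857 genes without ties between arrays, a setting added once the data had been seen. Each of the 70 list medians recomputed under alternatives moved by less than the median residual SD of the genes in its list, a wide bar for a median. Within it, the squamous median of 0.618 became 0.292 without control clone 2 and 0.951 without control clone 1.

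With the clone number as a replicate block the differences were 3.03 for PCDH18, 1.88 for PCDH7 and 1.01 for PCDH9, which are those without CDH26 clone 3, since its number has no partner, and 0 genes passed. Clones of the same number are separate clones. Their deviations correlated at −0.20 (number 1) and −0.205 (number 2) over genes. The centring makes the control deviations mirror each other, so these are not separate checks and cannot show whether the numbers pair clones.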

Other observations

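Genes near the other members in the gene order are named here after their values had been seen. DIAPH3, a formin and the nearest gene with a named probe set on one side of PCDH17, with 19 annotated genes between, stood at −0.64, −0.71 and −0.34 in the CDH26 clones against −0.15 and 0.15 in the control clones, a difference of −0.56 ± 0.16 (SE). STIM2, a calcium sensor of the endoplasmic reticulum on one side of PCDH7, stood at 0.58, 0.40 and 0.31 in the CDH26 clones against 0.30 and −0.30 in the control clones. It is the 2nd gene with a named probe set on that side, and 31 annotated genes without one lie between. Its values in CDH26 clone 3 and control clone 1, 0.310 and 0.302, were nearly equal. Near PCDH1, FCHSD1 differed by 0.23 ± 0.07 (SE) and RELL2 by −0.26 ± 0.12, with 5 annotated genes lacking a named probe set before each. In limma 0 of these 4 genes passed an adjusted p of 0.05, as did 0 of all genes. Other genes as near or nearer had differences close to the controls. LOC729080 and DELE1, on the other side of PCDH1, differed by −0.02 and −0.035. MIR4275, nearer to PCDH7 than STIM2, differed by 0.012, and PRR20A, on the other side of PCDH17, by 0.014. Near PCDH10, however, SCLT1 differed by 0.26 ± 0.10.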
